A study of Mus musculus with 4 samples.

Results

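The genes described here are homeobox regulators of embryonic patterning outside the Hox clusters. All genes in the deposited expression lists whose symbol belonged to the Lhx, Nkx, Dlx, Irx, Emx, En, Msx, Gsx or sine oculis homologue series were taken, which gave 49 of the 28250 genes listed. They were 14 Nkx, 8 Lhx, 6 Dlx, 6 Irx, 3 Msx, 2 Emx, 2 En and 2 Gsx genes and 6 sine oculis homologues. The choice used names and no measured value. RNA-seq had been run on TBV2 mouse embryonic stem cells (ESC) kept with LIF for 24 h, either with solvent (2 libraries) or with 5 µM MS-275 (2 libraries), an inhibitor of class I histone deacetylases also called Entinostat. Both groups were the same ESC line, the labels name no altered allele, and the line had been grown on a feeder layer and gelatin before treatment. The labels do not say that replicates were separate cultures, so p-values measure only the spread between these libraries.

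Homeobox genes encode DNA-binding transcription factors that give cells their position and identity in the embryo. The Lhx genes carry a LIM domain beside the homeodomain, the Nkx genes act along the ventral neural tube and in gut and heart, and the sine oculis homologues and the Dlx, Irx, Emx, En, Msx and Gsx genes pattern the forebrain, sense organs, branchial arches, limbs and midbrain. In pluripotent stem cells most of them are held at very low levels, and many lie in domains where active and repressive chromatin marks meet at CpG-rich promoters.

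The 4 libraries held 9785619 to 23467935 alignments, and 9122347 to 10973569 distinct alignment positions (a position is 1 chromosome, start and strand, counted once). The 10 pluripotency genes examined as defining markers of ESC were detected in every library, with summed values of 6.08 and 23.2 with solvent (replicates 1 and 2, in this order throughout) and 4.83 and 13.6 with MS-275, and all 10 were lower with MS-275 in both replicate pairs. The replicates therefore lay further apart in these markers than the treatments did. Of 16 fibroblast genes, used as markers of feeder cells, 10 were higher and 2 lower in both pairs (39.2% and 19.7% of all genes listed, and 50.0% of all genes tested were higher), and their summed value went from 0.473 and 0.588 to 0.882 and 0.987. Col1a1, a fibroblast collagen, was listed at 0.0146 and 0.0101 with solvent and 0.0681 and 0.110 with MS-275, while Fap was at 0.00036, 0, 0 and 0. The fibroblast genes Col3a1, at 0.00992, 0.0156, 0.00692 and 0.00755, and Dcn, at 0.00503, 0.0239, 0.00158 and 0.0113, were lower in both pairs. Trophectoderm markers were higher in both pairs for 7 of 7 genes (sums 0.0679 and 0.0476, then 0.240 and 0.187) and endoderm markers for 6 of 6 (0.0444 and 0.0119, then 0.0919 and 0.0353). Mesoderm markers were higher for 5 of 6 (0.0297 and 0.0179, then 0.104 and 0.0514) and neuronal markers for 6 of 9 (1.24 and 2.29, then 1.33 and 2.47). Stmn2, the neuronal gene with the highest values, was lower in both pairs, at 0.856 and 1.99 with solvent and 0.600 and 1.45 with MS-275. The part of any of these cell types in the results on homeobox genes was not tested. In bulk RNA a change in the number of cells of a type and a change in RNA per cell cannot be told apart.

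The homeobox genes sat low in solvent-treated ESC. The deposited value is a normalized expression signal per gene, and 0.001 is the lowest value that the authors' shorter lists retain. With solvent 28 and 27 of the 49 genes reached 0.001 (57.1% and 55.1%), compared with 67.1% and 64.4% of all genes listed. With MS-275 the counts were 42 and 40 of 49 (85.7% and 81.6%), compared with 73.7% and 70.9% of all genes. Expressed as a sum over the 49 genes, the values were 0.328 and 0.234 with solvent and 0.714 and 0.789 with MS-275. Without Six4, the gene with the highest solvent value, the sums were 0.208 and 0.144 with solvent and 0.640 and 0.735 with MS-275. For 10 of the 49 genes both MS-275 values reached 0.001 and neither solvent value did, which held for 1044 (3.7%) of all genes listed. The opposite held for 2 of the 49 genes and for 86 of all genes listed. Nkx2-1, which specifies thyroid, lung and ventral forebrain, was listed at 0 in all 4 libraries.

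The promoters of 5 genes show the kind of sequence that lies upstream of the genes described here, 4 of genes that were higher with MS-275 and 1, Six4, of a gene that was lower. Each is the 250 bases before the annotated start, from the RefSeq promoter table of GRCm38.p6, printed 5′ to 3′ on the strand of the gene, and each matched a single place in mm9 that lies outside annotated exons. Capitals mark CG dinucleotides, the sites of DNA methylation, which read alike on both strands. Msx1 is at chr5:38215825-38216074 (minus strand), Dlx2 at chr2:71384812-71385061 (minus), Lhx6 at chr2:35960929-35961178 (minus), Nkx2-3 at chr19:43686565-43686814 (plus) and Six4 at chr12:74214413-74214662 (minus).
Msx1: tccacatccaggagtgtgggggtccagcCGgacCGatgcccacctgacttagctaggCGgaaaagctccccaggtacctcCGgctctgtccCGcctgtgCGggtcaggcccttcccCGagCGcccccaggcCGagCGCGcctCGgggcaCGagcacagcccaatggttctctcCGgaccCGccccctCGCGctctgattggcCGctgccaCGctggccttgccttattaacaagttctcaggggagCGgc
Dlx2: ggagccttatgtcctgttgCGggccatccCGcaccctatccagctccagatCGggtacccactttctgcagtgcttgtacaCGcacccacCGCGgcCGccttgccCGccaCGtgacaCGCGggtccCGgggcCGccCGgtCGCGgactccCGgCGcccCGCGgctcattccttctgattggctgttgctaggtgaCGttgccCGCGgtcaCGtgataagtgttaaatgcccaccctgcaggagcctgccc
Lhx6: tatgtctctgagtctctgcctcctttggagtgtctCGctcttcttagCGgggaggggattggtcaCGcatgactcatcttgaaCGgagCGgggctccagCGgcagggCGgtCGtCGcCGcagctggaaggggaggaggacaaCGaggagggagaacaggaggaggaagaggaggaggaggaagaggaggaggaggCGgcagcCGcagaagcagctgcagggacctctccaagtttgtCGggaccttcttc
Nkx2-3: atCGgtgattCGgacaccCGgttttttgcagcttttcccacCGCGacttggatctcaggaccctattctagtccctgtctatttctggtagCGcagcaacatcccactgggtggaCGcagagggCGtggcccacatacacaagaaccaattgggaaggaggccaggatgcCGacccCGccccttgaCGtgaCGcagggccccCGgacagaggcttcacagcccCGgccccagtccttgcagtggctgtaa
Six4: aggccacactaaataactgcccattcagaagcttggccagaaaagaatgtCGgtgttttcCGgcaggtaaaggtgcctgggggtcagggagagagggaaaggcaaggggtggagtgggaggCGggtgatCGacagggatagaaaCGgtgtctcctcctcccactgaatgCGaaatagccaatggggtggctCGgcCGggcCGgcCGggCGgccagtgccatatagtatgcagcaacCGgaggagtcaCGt
Msx1 held 20 CG and Dlx2 held 24, counts reached by 17.9% and 12% of the 32851 promoters in the table, whose median was 6. Lhx6 and Nkx2-3 held 14 each (reached by 29.4%) and Six4 held 13 (31.5%). At least 1 CG was present in 92.1% of all promoters. Only 36 of the 49 genes were in the table, so no comparison of the whole set was made, and no chromatin or methylation measurement was used.

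To ask how 24 h with MS-275 changed these genes, the values were compared as log2(value + 0.005) with limma over the 20336 genes that reached 0.001 in at least 2 libraries, 42 of the 49 among them. A gene can enter this set through its MS-275 values alone, so counts over the tested genes are given beside counts over all 49. Irx6, Lhx3, Nkx1-1, Nkx2-1, Nkx2-6, Nkx3-2 and Nkx6-1 were not tested. In the design with treatment alone, 0 homeobox genes passed a Benjamini-Hochberg adjusted p of 0.05 in either direction with limma (0.00492% of all genes tested were called higher and 0.0% lower). Before adjustment, p was under 0.05 for 19 higher (14.6% of all genes tested) and 1 lower gene (2.77%) in this fit.

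The libraries carry a replicate number, and the authors' column headers mark replicate 1 of both conditions as the older run, so the number was also entered as a block. With this block 17 of the 42 tested genes, or 17 of 49, were higher with MS-275 (21.0% of all genes tested were called higher) and 2 were lower (6.46% were called lower). With the block and quantile normalization 9 were higher (13.8% of all genes tested) and 3 lower (13.7%), and with median-ratio scaling 16 were higher (16.4%) and 3 lower (13.8%). By family 3 of 3 Msx, 4 of 6 Dlx, 1 of 2 En, 3 of 7 Lhx, 1 of 2 Emx, 2 of 5 Irx, 2 of 9 Nkx and 0 of 2 Gsx tested genes were called higher, as was 1 of the 6 sine oculis homologues, and Nkx6-3 and Six4 were called lower. Every statement below that a gene passed the test refers to this blocked fit unless another is named. None of these calls was made in the same limma fit without the block, where adjusted p of the 17 lay between 0.0581 and 0.533. Without the block, 5 of 11 tested genes were called higher when only genes averaging 0.01 or more were kept (3.16% of all genes tested). The calls nearest the threshold were those of Nkx6-3, Irx2 and Six4, inside it at adjusted p of 0.0356, 0.0458 and 0.0481 with limma, while Lhx4, Six5 and Six6 were outside it at 0.0523, 0.0611 and 0.0611.

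Counts that need no model pointed the same way over all 49 genes. Both MS-275 values lay above both solvent values in 32 of 49 genes (26.1% of all genes listed) and below them in 4 (9.09%), and the groups overlapped in 13. A difference of at least 2-fold in both pairs, with values under 0.001 set to 0.001, was seen upward in 18 genes (11.5% of all genes listed) and downward in 2 (2.04%). The median log2 fold change was 0.48 over the 49 genes and 0.060 over all 28250 genes without the filter, and 0.55 and 0.20 over the genes tested. The latter depended on scaling: quantile normalization moved the median of all genes tested from 0.20 to -0.032 and that of the homeobox genes to 0.26, and median-ratio scaling moved them to -0.012 and 0.48.

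**Figure D1:**
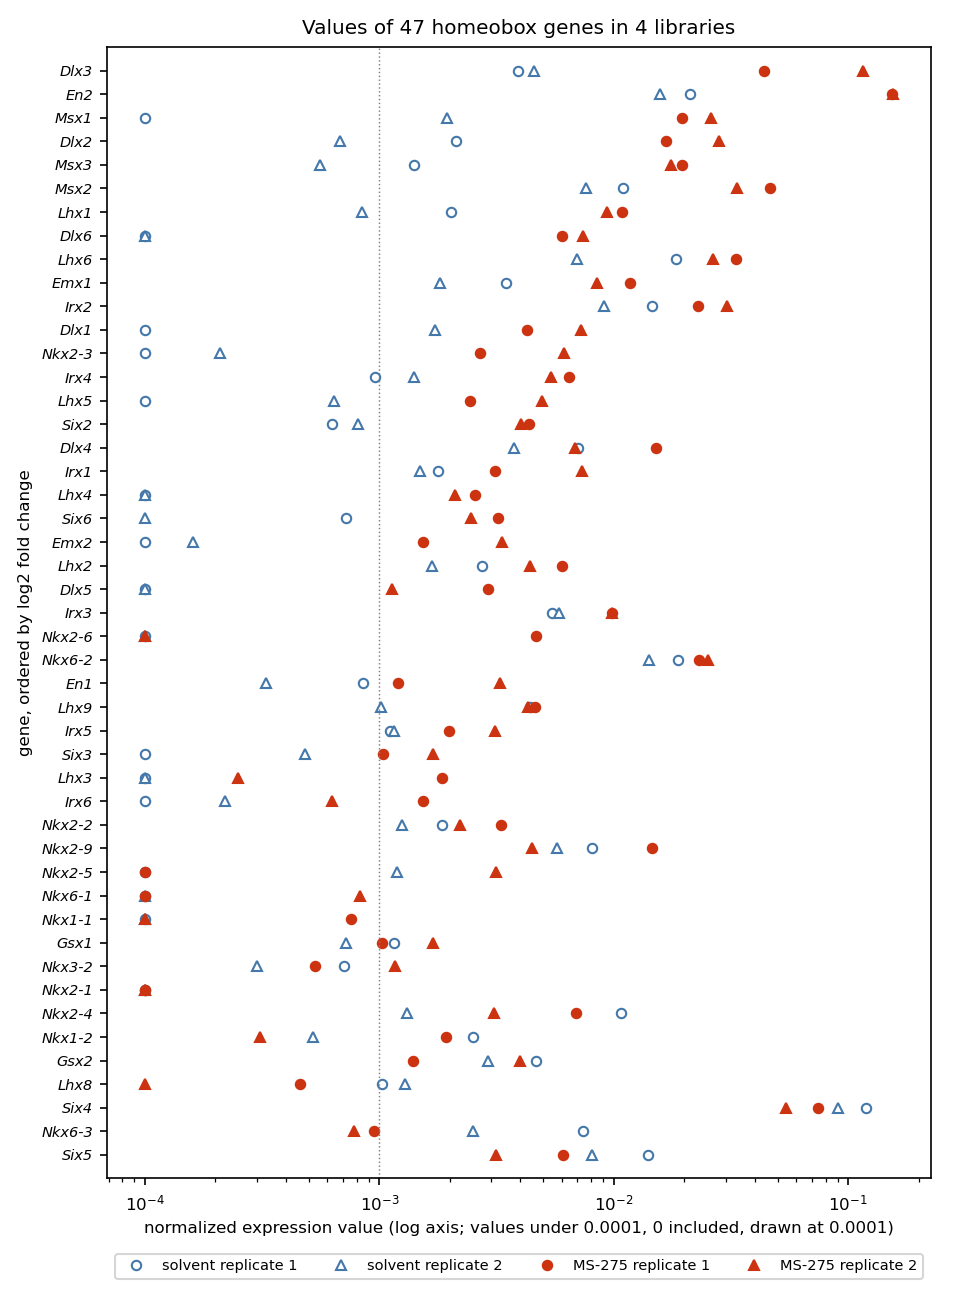
Normalized expression values (log axis, 0 and values under 0.0001 drawn at 0.0001) of 47 homeobox genes in the 4 libraries, ordered by log2 fold change, with blue open symbols for solvent, red filled symbols for MS-275, circles for replicate 1 and triangles for replicate 2. The dotted line marks 0.001, which 26 and 25 of these genes reached with solvent and 40 and 38 with MS-275, and Six4 near the bottom had the highest solvent values.

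Because a value near 0 says little of the reads behind it, distinct alignment positions on annotated mm9 exons were counted for each gene. The 49 genes held 2534 positions over both solvent files and 5048 over both MS-275 files, which together had 0.961 times the exon positions of the solvent files. More positions with MS-275 were found for 41 of the 49 genes (52.9% of all listed genes with an annotated locus), fewer for 7, and Nkx2-1 had 0 in each file. For 31 genes the solvent files held fewer than 10 positions in all, and this applied to 14 genes with MS-275. Six4 alone took 55.2% of the solvent positions and 17.1% of the MS-275 positions, whereas En2 and Dlx3 together went from 8.21% to 29.7%. In limma-voom on positions with the block, 24 of the 49 genes had enough positions to be tested. With the block 18 of 24, or 18 of 49, were higher (31.3% of all genes tested) and 3 lower (14.3%). Without the block 10 were higher (16.9%) and 1 lower (5.86%). A gene can enter this fit too through its MS-275 files alone, so these counts are a description. Dlx6, for example, entered with 28 and 11 MS-275 positions and 0 in each solvent file. Of the 17 genes called higher on values 15 were called higher on positions and 2, Lhx5 and Nkx2-3, held too few to test. Another 4 were called on positions alone, among them Dlx4 and Lhx2 as higher and Six5 as lower.

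**Figure D2:**
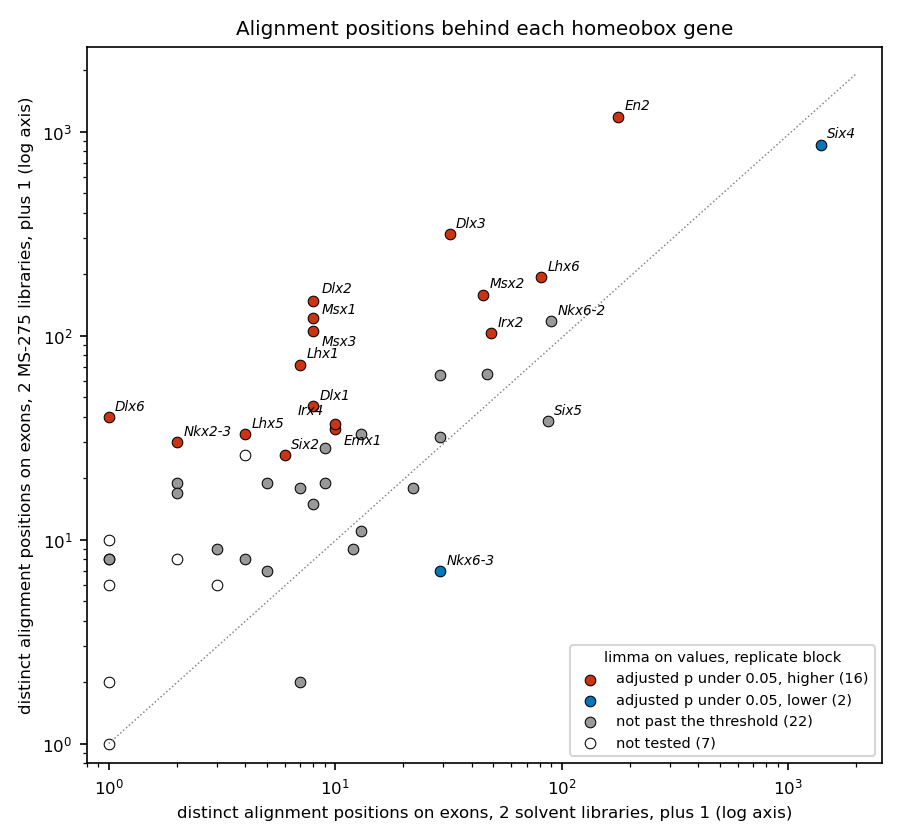
Distinct alignment positions on exons, plus 1, summed over the 2 solvent files (x, log axis) and the 2 MS-275 files (y, log axis), 1 point for each of 47 homeobox genes, coloured by the call of the blocked limma fit on values. The dotted line marks equal numbers at equal depth, with 39 genes above it and 7 below it, and Six4 at the right fell from 1398 to 863 positions while En2 went from 177 to 1185.

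Levels of different genes were compared on positions, which can be scaled by exon length. With solvent Six4 held 18.6 positions per kb of exon and 1000000 exon positions, Nkx6-2 held 3.48, En2 2.65 and Six5 2.26. With MS-275 En2 held 18.8, Six4 12.2 and Dlx3 9.70 on the same scale. Six4 thus had the highest level of the 49 genes with solvent and lay below En2 with MS-275.

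All 3 Msx genes, which act in neural crest, limb and dorsal neural tube and are well-known targets of BMP signalling, passed the test as higher. Msx1 was listed at 0 and 0.00195 with solvent and at 0.0195 and 0.0259 with MS-275. The log2 fold change of Msx1 was 2.22 ± 0.59 (95% interval, limma with the block, adjusted p = 4.13e-05). Both MS-275 values of Msx1 lay well above both solvent values, and its exons held 7 positions with solvent and 121 with MS-275. Msx1as, an antisense transcript of the same locus, was listed at 0, 0.00156, 0.0176 and 0.0206 in the same order. The counting is not stated to use strand, so reads of Msx1 and Msx1as cannot be told apart. Msx2 was listed at 0.0109 and 0.0076 with solvent and 0.0466 and 0.0334 with MS-275, a log2 fold change of 1.65 ± 0.65 (limma with the block, adjusted p = 9.55e-04). Msx3, whose expression in the embryo is restricted to the dorsal neural tube, went from 0.00141 and 0.00056 to 0.0196 and 0.0176, a log2 fold change of 1.98 ± 0.58 (adjusted p = 8.49e-05 in the same fit). The 2 groups did not overlap for any Msx gene, and the pairs gave nearly the same change, 1.69 and 1.61 for Msx2 and 1.94 and 2.02 for Msx3.

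The Dlx genes, distal-less homologues that work in forebrain interneurons, branchial arches and skin, held the largest change of the set. Dlx3, needed in epidermis and placenta, was listed at 0.00392 and 0.00458 with solvent and at 0.0436 and 0.116 with MS-275. The solvent values were close to each other, whereas the MS-275 values of Dlx3 differed from each other by more than the solvent values did, and the log2 fold change was 2.45 in pair 1 and 3.66 in pair 2. Its mean was 3.05 ± 0.72 (limma with the block, adjusted p = 1.58e-05), on 31 solvent and 314 MS-275 positions. Dlx2 was listed at 0.00212 and 0.00068, then at 0.0167 and 0.0281, a log2 fold change of 2.08 ± 0.65 (adjusted p = 1.42e-04). Its neighbour Dlx1, which shares forebrain enhancers with it, was listed at 0 and 0.00173, then at 0.00426 and 0.00726, with a log2 fold change of 0.88 ± 0.49 (adjusted p = 0.00988), a call lost with quantile normalization (limma with the block, adjusted p = 0.125). Neither gene overlapped between groups, though an annotated antisense gene, Dlx1as, overlaps exons of Dlx1.

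Dlx6 was listed at 0 in both solvent libraries and at 0.00601 and 0.00737 with MS-275. It had 0 solvent positions and 39 with MS-275, at least 13.5-fold more at equal depth when 3 positions over the solvent group are taken as the limit that a count of 0 allows. It passed the test (limma with the block, adjusted p = 9.49e-04), and its fitted fold change depends on the pseudocount. Dlx6 entered the tested set through its MS-275 values alone, which favours a call as higher. Dlx5, its neighbour in the reverse orientation, was listed at 0, 0, 0.00292 and 0.00113 and did not pass (adjusted p = 0.0937), with 0 and 7 positions. Dlx4, next to Dlx3, was listed at 0.00701 and 0.00374 and then at 0.0151 and 0.00686, so that its groups overlapped. Its log2 fold change of 0.59 ± 0.60 did not pass on values (limma with the block, adjusted p = 0.131), and 28 against 63 positions gave 1.19 ± 0.90 on positions (limma-voom with the block, adjusted p = 0.0285). Exons of Dlx4 overlap those of the annotated gene A730090H04Rik, and positions on either strand were counted, so the reads of these genes cannot be told apart there.

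En2 had the most positions of the 49 genes after treatment. En2, a gene of the midbrain and hindbrain boundary, was listed at 0.0211 and 0.0158 with solvent and 0.154 and 0.156 with MS-275. The log2 fold change of 2.78 ± 0.56 (limma with the block, adjusted p = 4.14e-06) was matched by 2.82 ± 0.41 on positions (limma-voom with the block, adjusted p = 3.92e-09). The MS-275 values of En2 were nearly equal and far above both solvent values. Positions of En2 were not limited to exons: its introns went from 15 to 149 positions and the 5 kb upstream of its start from 1 to 81. The MS-275 files agreed in introns, with 77 and 72. Upstream they held 71 and 10, so that count came mostly from 1 file. En1, its paralogue, was listed at 0.00085, 0.00033, 0.0012 and 0.00327 and did not pass the test.

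Nkx2-6, which is expressed in pharyngeal endoderm, was listed at 0.00468 in MS-275 replicate 1 and at 0 in the other libraries. Nkx2-3, needed for gut and spleen, was listed at 0 and 0.00021, then at 0.00269 and 0.00615, and passed with 0.86 ± 0.47 (limma with the block, adjusted p = 0.00948, and 0.0597 with quantile normalization). It had 1 solvent and 29 MS-275 positions. These 2 counts give a ratio of 30.2 with a 95% counting interval of 5.00 to 1232, so the size of this change is poorly bounded.

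The remaining Nkx genes did not move together. Nkx6-3, a gene of the stomach and hindbrain, was listed at 0.00742 and 0.00251 with solvent and at 0.00095 and 0.00078 with MS-275. It was lower in both pairs, by -1.06 and -0.38, and passed the test with -0.72 ± 0.51 (limma with the block, adjusted p = 0.0356, and 0.0651 at a pseudocount of 0.02), with 28 and 6 positions. The solvent values of Nkx6-3 differed from each other more than the MS-275 values did. Nkx6-2, which acts in the ventral neural tube and in oligodendrocytes, was among the 5 genes with the highest solvent values, at 0.0188 and 0.0141, and was listed at 0.0231 and 0.0252 with MS-275. Its log2 fold change of 0.45 ± 0.66 did not pass (limma with the block, adjusted p = 0.304) and was -0.038 after quantile normalization, and its exons overlap those of Inpp5a. Nkx2-2, Nkx2-4 and Nkx2-9, which act in the ventral neural tube, had log2 fold changes of 0.24, -0.02 and 0.20, each of which changed sign under another setting, and none passed. Nkx6-1 was listed at 0, 0, 0 and 0.00083 although 3 solvent and 25 MS-275 positions lay on its annotated exons, so a listed 0 is not proof that no read was present.

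**Figure D3:**
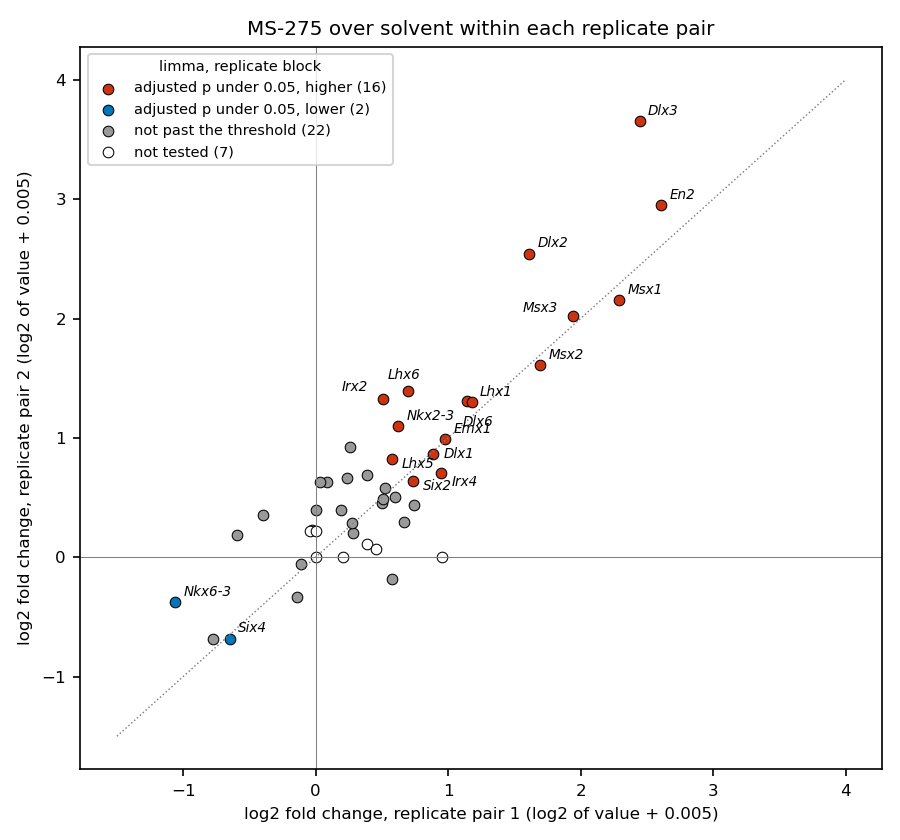
Log2 fold change of MS-275 over solvent on log2(value + 0.005) in replicate pair 1 (x) and replicate pair 2 (y), 1 point for each of 47 homeobox genes, coloured by the call of the blocked limma fit, with the dotted line at equality. Of the 40 genes drawn that were tested, 30 were positive in both pairs (50.0% of all genes tested and 39.2% of all genes listed). Another 5 were negative in both (19.7% of all genes listed, a wider set than the genes tested). Dlx3 lies at 2.45 and 3.66 in the upper right and Nkx6-3 at -1.06 and -0.38 in the lower left.

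Among the Lhx genes 3 passed as higher. Lhx1, a gene of the head organizer, was listed at 0.00202 and 0.00084 and then at 0.0109 and 0.00939, a log2 fold change of 1.24 ± 0.54 (limma with the block, adjusted p = 0.00197) on 6 and 71 positions. Lhx5, a gene of the developing diencephalon, went from 0 and 0.00064 to 0.00244 and 0.00496 (0.70 ± 0.46, adjusted p = 0.0247 in the same fit). This call was lost with quantile normalization and at a pseudocount of 0.02 (limma with the block, adjusted p = 0.176 and 0.0612). Lhx6, which marks interneurons born in the medial ganglionic eminence, was already present with solvent at 0.0185 and 0.00699 and was listed at 0.0332 and 0.0265 with MS-275. The groups of Lhx6 did not overlap, but its solvent libraries lay further apart than its MS-275 libraries, and the change was 0.70 in pair 1 and 1.39 in pair 2. Its mean of 1.05 ± 0.68 passed (limma with the block, adjusted p = 0.0232), but not with quantile normalization (0.57, adjusted p = 0.216) or median-ratio scaling (adjusted p = 0.0506). Lhx2, a gene of eye and cortex, passed on positions alone, with 12 and 32 positions and 1.42 ± 1.18 (limma-voom with the block, adjusted p = 0.0457). Lhx8 ran the other way, at 0.00103 and 0.00129 with solvent and 0.00046 and 0 with MS-275, and did not pass.

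Emx1, a gene of the dorsal telencephalon, was listed at 0.00348 and 0.00182 with solvent and 0.0117 and 0.00852 with MS-275. The change was 0.98 and 0.99 in the pairs and passed with 0.98 ± 0.56 (limma with the block, adjusted p = 0.0111, and 0.159 with quantile normalization). Its paralogue Emx2 was listed at 0, 0.00016, 0.00153 and 0.00333 and did not pass (adjusted p = 0.0635). Both MS-275 values of each Emx gene were above both solvent values. The Gsx genes, which mark progenitors of the ventral telencephalon, had 16 positions in each group, and both overlapped between groups.

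The Irx genes, Iroquois factors of neural plate, heart and limb, lie in 2 clusters on chromosomes 13 and 8. In the first Irx2 was listed at 0.0146 and 0.00911 and then at 0.0229 and 0.0303 (0.92 ± 0.69, limma with the block, adjusted p = 0.0458). Irx2 was called in 2 of the 7 blocked fits that made calls and tested it, this one and that on positions, and adjusted p was 0.386 with quantile normalization, 0.103 with median-ratio scaling and 0.0513 to 0.0553 in the other limma fits. Irx4 was listed at 0.00096 and 0.0014 and then at 0.00647 and 0.00541 (0.82 ± 0.50, limma with the block, adjusted p = 0.0167, and 0.187 with quantile normalization). Irx1 was listed at 0.00178, 0.00149, 0.00312 and 0.00729 and did not pass (0.59 ± 0.52, adjusted p = 0.0882). In all 3 the MS-275 values were above the solvent values. In the second cluster Irx3 and Irx5 had log2 fold changes of 0.48 ± 0.59 and 0.30 ± 0.46, which did not pass and turned to -0.061 and -0.022 after quantile normalization, and Irx6 was too low to test. Whether the 2 Irx clusters differed was not tested.

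The sine oculis homologues, which act in eye, ear, muscle and kidney with Eya cofactors, went in both directions. Six4 was listed at 0.119 and 0.0900 with solvent and at 0.0742 and 0.0543 with MS-275. Its groups did not overlap, the change was -0.65 and -0.68 in the pairs, and it passed as lower with -0.67 ± 0.51 (limma with the block, adjusted p = 0.0481). Adjusted p of Six4 was 0.0520 and 0.0663 at pseudocounts of 0.001 and 0.02 and 0.0537 when only genes averaging 0.01 or more were kept (limma with the block), so this call was lost there. On 1398 solvent and 863 MS-275 positions, the most of any gene in the set with solvent, the change was -0.62 ± 0.29 (limma-voom with the block, adjusted p = 0.00124). Six5 was listed at 0.0140 and 0.00807 and then at 0.0061 and 0.00315. It did not pass on values (-0.73 ± 0.59, adjusted p = 0.0611) and passed as lower on 86 and 37 positions (-1.13 ± 0.80, limma-voom with the block, adjusted p = 0.0218).

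Six6, an eye field gene in the same cluster on chromosome 12 as Six4, was listed at 0.00072, 0, 0.00321 and 0.00246 and did not pass. Both MS-275 values of Six6 were above both solvent values, opposite to Six4. Six2, which maintains nephron progenitors, was listed at 0.00063 and 0.00081 and then at 0.00435 and 0.00403 and passed as higher (0.68 ± 0.47, limma with the block, adjusted p = 0.0304). The call of Six2 was lost with quantile normalization (0.34, limma with the block, adjusted p = 0.256) and at a pseudocount of 0.02 (adjusted p = 0.0620). Its neighbour Six3 was listed at 0, 0.00048, 0.00104 and 0.0017 and did not pass (adjusted p = 0.310).

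**Figure D4:**
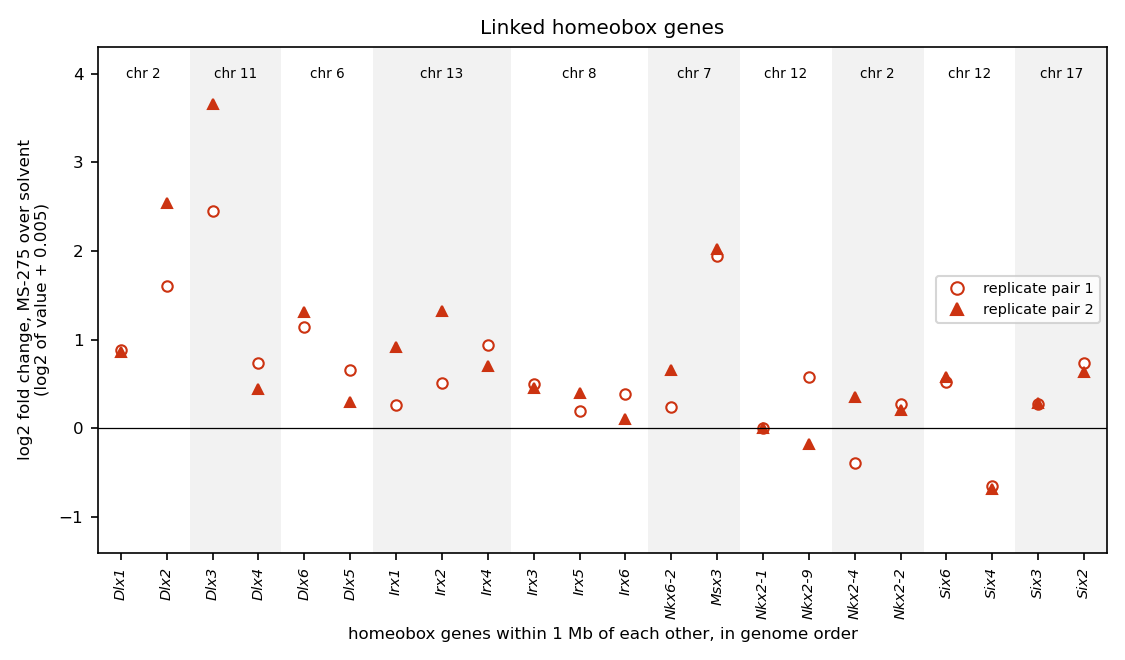
Log2 fold change of MS-275 over solvent on log2(value + 0.005) for 22 homeobox genes that lie within 1 Mb of another one, in genome order, with open circles for replicate pair 1 and triangles for pair 2 and shading that alternates between the 10 clusters drawn. Within a cluster the changes were unequal, for example 1.94 and 2.02 for Msx3 beside 0.24 and 0.66 for Nkx6-2, and Six4 fell below 0 in both pairs beside Six6 above it.

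To see where in the locus the additional reads lay, positions were summed over the 17 genes called higher, a choice made on values from the same libraries, so the sums are a description. Their exons went from 549 to 3326 positions, which is 6.30 times at equal depth. Their introns went from 69 to 270 (4.07 times) and the 5 kb upstream of their starts from 144 to 283 (2.04 times). Single genes weighed on these off-exon sums. Upstream of Dlx1 there were 103 positions with solvent and 54 with MS-275, and Emx1 introns held 25 in each group. The ratios are therefore not those of a typical gene, and a ranking of exons, introns and upstream sequence was not tested. Per kb the MS-275 files held 63.8 positions on exons, 3.73 in introns and 3.42 upstream. Thus the added positions lay mostly on annotated exons, with En2 as the gene that also had many in introns.

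Homeodomain proteins act with partners, namely Ldb and Lmo proteins for Lhx factors, Eya and Dach for the sine oculis homologues, Tle corepressors for En and Nkx factors, and the TALE proteins Pbx, Meis and Tgif. Of 28 such genes 27 were listed and 26 tested, and with the block 6 were higher (23.1%, beside 21.0% of all genes tested) and 6 lower (23.1%, beside 6.46%), with a median log2 fold change of 0.15 compared with 0.20 for all genes tested. Meis1, a TALE homeodomain partner, was listed at 0.00459 and 0.00428 and then at 0.0411 and 0.0433 (2.32, limma with the block, adjusted p = 6.13e-05). Lmo1, a LIM-only protein that competes for Ldb1, went from 0.0060 and 0.00501 to 0.0377 and 0.0220 (1.69, adjusted p = 8.82e-04 in the same fit). Tle3, a Groucho corepressor, went from 0.235 and 0.421 to 0.121 and 0.107 (-1.43, limma with the block, adjusted p = 6.20e-04). Tgif1 went from 0.728 and 0.906 to 0.491 and 0.282 (-1.12, adjusted p = 0.00950 in the same fit). Groups did not overlap for any of these 4 genes.

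A second list held 44 further homeobox genes outside the Hox clusters, of which 33 were tested. With the block 18 were higher (54.5%, beside 21.0% of all genes tested) and 0 lower (beside 6.46%). Before adjustment 22 higher and 1 lower had p under 0.05 in the same limma fit, beside 5876 and 2077 of all 20336 genes tested. The median log2 fold change of the 33 genes was 0.79, compared with 0.55 for the tested genes described above. Lmx1a, a LIM homeobox gene of the roof plate and midbrain, was listed at 0.00783 and 0.00426 and then at 0.0501 and 0.0717 (2.58, limma with the block, adjusted p = 4.52e-05). Barx2 was listed at 0.0116 and 0.0273 and then at 0.0261 and 0.358 (2.20, adjusted p = 0.00126 in the same fit), so its groups overlapped and MS-275 replicate 2 carried most of the signal. The lowest log2 fold changes of this list were those of Gbx1, listed at 0.0103 and 0.00773 and then at 0.00442 and 0.00302 (-0.68), and Prrx1, at 0.00494 and 0.00618 and then at 0.00336 and 0.00305 (-0.36). Neither passed on values (limma with the block, adjusted p = 0.0673 and 0.302), and Gbx1, a gene of the developing spinal cord, was lower on positions (-1.61 ± 0.93, limma-voom with the block, adjusted p = 0.00586, and 0.0464 without the block). A difference between the 2 homeobox sets was not tested.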

How the data were processed

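RNA-seq values of 4 libraries, 2 with solvent and 2 with MS-275, were grouped by their deposited titles. As deposited by the authors, the values are a signal per gene: 36-base reads of poly(A) RNA had been mapped to mm9 and converted to normalized expression values with Genomatix; aligner, version, formula and handling of repeated reads are not given in the sources used here. The depth behind a value cannot be read from it. Deposited ratio tables hold the authors' own comparison and were not used.

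Genes at 0.001 or more in at least 2 libraries were tested with limma 3.58.1 (R 4.3.3, lmFit, eBayes with trend) on log2(value + 0.005), Benjamini-Hochberg adjusted over all 20336 genes. The pseudocount of 0.005 understates changes of low genes. The replicate block rests on the authors' headers; deviations from group means correlated at 0.764 between same-numbered libraries. Distinct positions of the deposited alignments were counted on GENCODE exons (at least 10 in at least 2 libraries, 15277 genes) for limma-voom. Repeated alignments made up 53.2% and 54.4% of 2 files (replicate 1) and 0% of the others. Within each condition, a library's values tracked the other replicate's alignment file better than its own (r = 0.963 compared with 0.937 for solvent replicate 1, across 17397 genes). Position counts of each gene were therefore summed by condition. The limma-voom fits did not use these sums. They took the 4 files separately, and with the block they used the replicate numbers under which the files were deposited. Position intervals cover counting error only. Both limma procedures were tested on simulated data.

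The gene set, lists and tests were chosen with earlier results of these data known. Genes named are those passing with the block, the 5 highest with solvent, all members of clusters within 1 Mb, antisense partners, and the 2 partner or other homeobox genes that changed most in each direction; others named, among them En1, Emx2, Lhx2, Lhx8, Six5 and Nkx6-1, were chosen after their values were seen. Alternatives were other pseudocounts, filters, scalings, the block, positions, folds and leaving out each library. The paper names DMSO for another assay and control alignments are labelled ETOH, so the text says solvent. Some genes that enter the counts are not reported here by name or drawn.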

Additional observations from a re-analysis of the deposited data

How the results depend on the processing

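With treatment alone 0 homeobox genes were called by limma, while 19 higher and 1 lower had p under 0.05 before adjustment. Calls as higher, with the share of all genes tested in the same fit, numbered 17 with the replicate block (21.0%), 9 with block and quantile normalization (13.8%), 16 with block and median-ratio scaling (16.4%), 20 and 14 with block and pseudocounts of 0.001 and 0.02 (20.7% and 18.6%), 7 of 11 tested with block and a mean value of at least 0.01 (18.7%), 5 with that filter alone (3.16%), 10 on positions (16.9%) and 18 on positions with block (31.3%). Calls as lower numbered 2 with block (6.46%), 3 with block and quantile normalization (13.7%), 3 with block and median-ratio scaling (13.8%), 1 with block and pseudocount 0.001 (6.0%), 0 with block and pseudocount 0.02 (5.69%) or the mean filter (7.4%), 1 on positions (5.86%) and 3 on positions with block (14.3%). Leaving out a library without the block gave 0 to 1 higher, the 1 being without solvent replicate 1. The block without a filter called 0 genes of all 28250. Dlx2, Dlx3, Dlx6, En2, Lhx1, Msx1, Msx2 and Msx3 were called in each of the other fits with the block that tested them. Of 26 partner genes tested, 0 were called higher without block (0.00492% of all genes tested) and 6 with block (23.1%, beside 21.0% of all genes tested). With block and quantile or median-ratio scaling 2 and 4 were higher (7.69% and 15.4%, beside 13.8% and 16.4%). With block and pseudocounts of 0.001 and 0.02, 5 were higher in each (19.2%, beside 20.7% and 18.6%). With the mean filter 3 of 20 were higher with block (15%, beside 18.7%) and 1 without (5%, beside 3.16%). On positions 4 of 24 were higher (16.7%, beside 16.9%), and 6 with block (25%, beside 31.3%). Partner genes called lower numbered 0 of 26 without block (0.0% of all genes tested) and 6 with block (23.1%, beside 6.46% of all genes tested). With block and quantile or median-ratio scaling 7 were lower in each (26.9%, beside 13.7% and 13.8%). With block and pseudocounts of 0.001 and 0.02, 5 were lower in each (19.2%, beside 6.0% and 5.69%). With block and the mean filter 5 of 20 were lower (25%, beside 7.4%). On positions 3 of 24 were lower (12.5%, beside 5.86%), and 6 with block (25%, beside 14.3%).

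The median log2 fold change of the homeobox genes was 0.55, and with or without block 1.14 and 0.22 at pseudocounts of 0.001 and 0.02, 1.65 with the mean filter (11 genes) and 0.26 after quantile normalization. It was 1.89 on positions and 1.90 on positions with block. With a floor of 0.01 the 2-fold counts over the 49 homeobox genes were 4 higher and 0 lower. Over all 28250 genes listed they were 1263 and 362. At 3-fold 13 homeobox genes were higher and 0 lower, beside 1815 and 182 of all genes listed. Leaving out a library gave 17 to 24 homeobox genes 2-fold higher, beside 2692 to 4435 of all genes listed. It gave 1 to 2 lower, the 1 being without solvent replicate 1, beside 437 to 1308 of all genes listed. Quantile normalization reversed Irx3 (-0.061), Irx5 (-0.022), Nkx2-2 (-0.11), Nkx2-9 (-0.35) and Nkx6-2 (-0.038), with or without block. Nkx2-4 turned to 0.13 at pseudocount 0.001 with or without block, 0.64 without solvent replicate 1 and 0.26 without MS-275 replicate 2 (range -0.68 to 0.64 over libraries left out), and Nkx2-9 to -0.32 without MS-275 replicate 1 (range -0.32 to 0.72). The cause of these shifts was not tested. Of the 17 genes called higher 12 had both solvent values under the pseudocount.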
